A study of Mus musculus with 6 samples.

Results

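The natriuretic peptide genes of the embryonic mouse heart are described here: 9 genes of the 45706 in the deposited table, chosen by name. They were the ligand genes Nppa, Nppb and Nppc, the receptor genes Npr1, Npr2 and Npr3, and the genes of the enzymes that process or break down the peptides, Corin, Furin and Mme. The table holds poly(A) RNA of 6 hearts of strain C57BL6/J, all homozygous for loxP-flanked alleles of both Rbpms and Rbpms2, which encode RNA-binding proteins. The 3 controls, described as littermates, had no Cre named in their genotype. The 3 double knockouts were positive for aMyHC Cre, a recombinase driven in cardiomyocytes by a myosin promoter, so that the alleles of other heart cells are not its target. Only the knockouts are named as carrying Cre, so effects of the transgene and of the deletion cannot be told apart. The embryonic day is not given, and the tissue is labelled heart with no chamber named.

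Natriuretic peptides are short ring-shaped hormones. Nppa encodes the atrial peptide ANP and Nppb the B-type peptide BNP, both made by cardiomyocytes, and Nppc encodes the C-type peptide CNP. ANP and BNP act on the receptor encoded by Npr1 and CNP on that encoded by Npr2, which are guanylyl cyclases that make the second messenger cGMP. The receptor encoded by Npr3 has no cyclase domain and takes up all 3 peptides for degradation. Corin cuts the ANP precursor at the cardiomyocyte surface, furin cuts other prohormones, including those of BNP and CNP, and neprilysin, the product of Mme, degrades the mature peptides. In the developing heart Nppa is known as a gene of the atria and of the trabecular layer of the ventricles, and Npr3 as a gene of the endocardium.

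Nppa and Nppb lie next to each other on chromosome 4 in the same orientation, with 13517 bases between the end of Nppb and the start of Nppa (mm10, GENCODE M21). As both were higher in the knockouts, the 250 bases before each RefSeq start are shown (RefSeq, GRCm38.p6, plus strand), from chr4:148000472-148000721 for Nppa and chr4:147985650-147985899 for Nppb. Capitals mark the short motifs searched. GENCODE starts Nppb upstream of RefSeq, at 147985788. By GENCODE the later bases of the Nppb window, with all of its marked motifs, thus lie inside the gene.
Nppa: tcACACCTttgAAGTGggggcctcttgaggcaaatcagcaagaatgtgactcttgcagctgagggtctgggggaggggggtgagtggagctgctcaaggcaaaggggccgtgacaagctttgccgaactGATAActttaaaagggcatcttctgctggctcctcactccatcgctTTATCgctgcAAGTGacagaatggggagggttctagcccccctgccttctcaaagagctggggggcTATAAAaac
Nppb: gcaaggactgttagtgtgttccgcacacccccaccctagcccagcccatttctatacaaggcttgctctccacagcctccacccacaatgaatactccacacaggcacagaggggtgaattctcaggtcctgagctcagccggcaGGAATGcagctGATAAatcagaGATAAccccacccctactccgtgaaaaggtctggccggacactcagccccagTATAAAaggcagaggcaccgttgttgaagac
The motifs were GATAA for GATA factors, AAGTG for NKX2-5, AGGTGT for T-box factors and GGAATG for TEAD factors, each on both strands, and TATAAA on the plus strand. The CArG box of serum response factor was searched by its name's strict form, also on both strands. No searched motif overlapped another in these windows. The Nppa window held GATAA at 2 places, AAGTG at 2, AGGTGT at 1 and TATAAA at 1, and the Nppb window held GATAA at 2, GGAATG at 1 and TATAAA at 1. The strict CArG form had no match in either, and forms that differ from it by a letter were not searched. Over 32851 RefSeq promoter windows of the same length, GATAA was found in 22.6%, AAGTG in 40.7%, AGGTGT in 11.8%, GGAATG in 12.6%, TATAAA in 7.59% and the strict CArG form in 1.47%. The windows of Npr1, Npr3 and Corin held none of the motifs. Furin, which did not pass the test below, held AAGTG at 4 places and TATAAA at 1 over its 2 windows. Npr2 held AGGTGT at 1 place, Nppc held TATAAA at 1, and Mme held GGAATG at 1 over its 3 windows. A match describes the letters and is not evidence of binding.

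The values are numbers of reads per gene that had been divided by a factor per heart and rounded, called deposited values here. Their totals were 17861435 to 18439201 per heart, and the depth estimated from the spacing of low values was 12960709 to 25837261 reads. The targeted genes had lower values in all 3 knockouts: Rbpms was 3868 to 7656 among controls against 852 to 1134 among knockouts, and Rbpms2 was 1362 to 1998 and 879 to 1003. Markers of cardiomyocytes were abundant in every heart, with a summed value of 1013560 to 1299796 over 15 genes; none of the 15 was at 0. In limma, which tested 15556 genes on log2(value + 1) after a minimum mean of 10, 17.2% of the genes passed a Benjamini-Hochberg adjusted p of 0.05, 8.61% higher and 8.56% lower in the knockouts. Each sample is labelled as a heart, but nothing says that the embryos came from separate litters.

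Of the 9 genes, 8 met that minimum and were tested, and Nppc was not. The 9 were chosen with earlier results of these data known, so counts over them are descriptive and not independent support. In the knockouts 5 of the 8 rose (Nppa, Nppb, Npr2, Npr3 and Mme) beside 8.61% of all genes tested, and 0 fell, with 0 lower also at an unadjusted limma p under 0.05. The median log2 change of the 8 was 0.52, against 0.00 over all genes tested. The knockout and control hearts did not overlap in the 5 genes that rose, and 0 were apart in the other direction. Over all genes tested such a separation was found in 35.4%, upward in 17.5% and downward in 17.9%. The 5 were 4 without control replicate 2, control replicate 3, knockout replicate 2 or knockout replicate 3, and the gene lost each time was Mme.

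**Figure D1:**
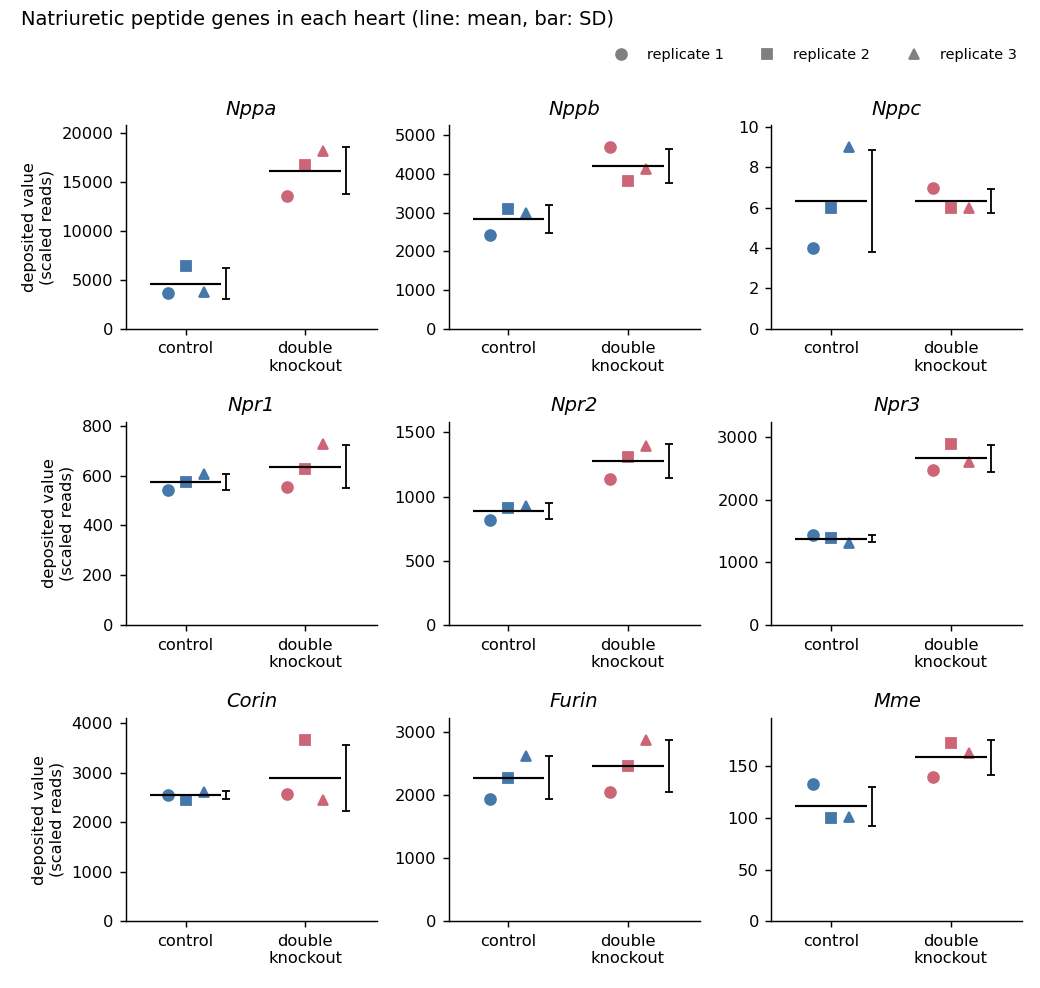
Deposited value (scaled reads, linear axis from 0, a different scale for each gene) of the 9 genes in each of the 3 control and 3 double knockout hearts; symbols mark the replicate number, the line is the mean and the bar beside it the SD. All 3 knockouts lie above all 3 controls for Nppa, Nppb, Npr2, Npr3 and Mme, and the groups overlap for Nppc, Npr1, Corin and Furin.

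Nppa (ENSMUSG00000041616, chromosome 4, 148000722 to 148002079) had the largest change of the 8 tested genes. Its value was 3635, 6446 and 3743 among controls against 13576, 16758 and 18230 among knockouts, in the order of replicates 1 to 3 that is kept throughout. The lowest knockout was thus above the highest control, and control replicate 2 stood above the other controls. The mean rose from 4608 ± 1593 to 16188 ± 2379 (SD, n = 3 each), a log2 change of 1.85 (SE 0.20, limma adjusted p = 0.000626), the 37th highest of the 15556 genes tested. Without control replicate 2 the log2 change was 2.12.

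Nppb (ENSMUSG00000029019, chromosome 4, 147985788 to 147987205) was at 2427, 3085 and 2982 among controls against 4683, 3804 and 4119 among knockouts. The groups were apart by a smaller margin than for Nppa, and the lowest control and the highest knockout were both replicate 1. The mean was 2831 ± 354 in controls and 4202 ± 445 in knockouts (SD, n = 3 each), and Nppb rose by a log2 change of 0.57 (SE 0.10, limma adjusted p = 0.00545).

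The ratio of the Nppa value to the Nppb value within a heart was 1.498, 2.09 and 1.26 among controls against 2.90, 4.41 and 4.43 among knockouts. The mean ratio was 1.61 ± 0.43 and 3.91 ± 0.88 (SD, n = 3 each), a difference of 1.28 on the log2 scale, and the groups did not overlap. In a two-sided exact permutation test p was 0.1, the smallest that 3 against 3 hearts can give, and it was also 0.1 after adjustment over the 3 ratios tested. This test therefore could not pass a threshold of 0.05 with 3 hearts a group.

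Nppc (ENSMUSG00000026241, chromosome 1, 86666291 to 86670571) was close to absent from these hearts, at 4, 6 and 9 among controls against 7, 6 and 6 among knockouts. These values stand for an estimated 4 to 10 reads per heart. With no minimum on the mean, its log2 change was 0.05 (SE 0.38, limma adjusted p = 0.969). A change in the CNP gene was not detectable at this depth.

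Levels of different genes are compared per kb of exon (all annotated exons of the gene merged), since long genes yield more reads. Nppa and Nppb stood far above the other 7 genes. Nppa was at 5327 ± 1841 and Nppb at 3625 ± 453 per kb in the controls (SD, n = 3 each), and 18714 ± 2750 and 5380 ± 570 in the knockouts. By the mean per kb, Nppa ranked 118th among the 15556 genes tested in the controls and 13th in the knockouts, and Nppb ranked 196th and 114th. Corin followed at 470 ± 15 per kb in controls, then Furin at 248 ± 37, Npr2 at 190 ± 13, Npr3 at 147 ± 6.2, Npr1 at 120 ± 6.8 and Mme at 9.65 ± 1.6. Nppc was lowest, at 6.08 ± 2.4. In the controls no gene's range over the hearts overlapped that of the next gene in this order. In the knockouts Npr3 came to 283 ± 23, Npr2 to 274 ± 29 and Furin to 269 ± 45 per kb, and the ranges of these 3 overlapped. Merged exon length overstates the length of genes with several transcript forms, so the order is approximate.

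**Figure D2:**
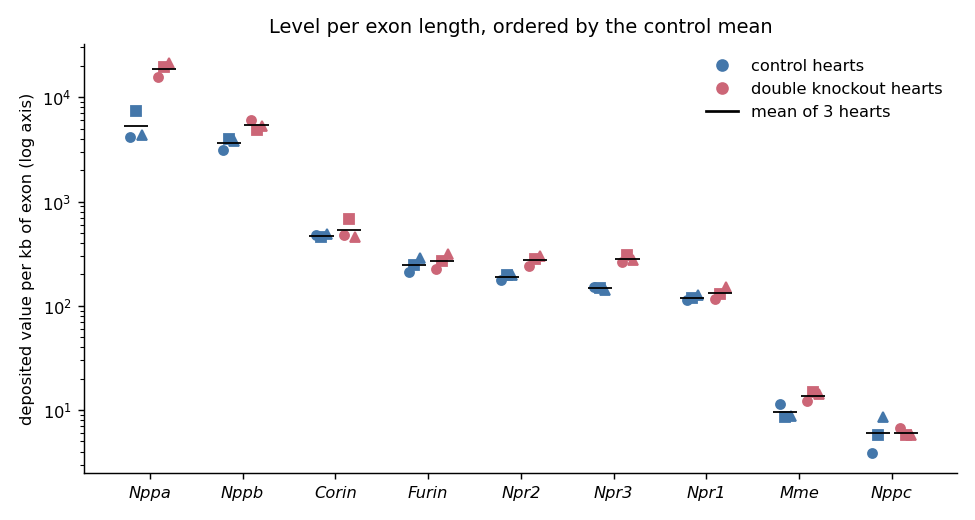
Deposited value per kb of exon (log axis) of the 9 genes, ordered by the control mean; points are hearts, with the symbol for the replicate number as in the plot of values by heart, blue for controls and red for double knockouts, and lines are means of 3 hearts. Nppa and Nppb lie above all other genes in both groups, and Npr3 moves from below Npr2 in the controls into its range in the knockouts.

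Npr3 (ENSMUSG00000022206, chromosome 15, 11839896 to 11907287), the clearance receptor gene, had the smallest standard error of the 8 tested genes. Its value was 1432, 1383 and 1316 among controls against 2478, 2896 and 2601 among knockouts. The hearts of each group lay close together and far from the other group. The mean rose from 1377 ± 58.2 to 2658 ± 215 (SD, n = 3 each), a log2 change of 0.95 (SE 0.07, limma adjusted p = 0.000239).

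Npr2 (ENSMUSG00000028469, chromosome 4, 43631935 to 43651244), the CNP receptor gene, was at 817, 914 and 931 among controls against 1136, 1307 and 1398 among knockouts. Every knockout was above every control. The mean was 887 ± 61.5 and 1280 ± 133 (SD, n = 3 each), and Npr2 rose by 0.53 (SE 0.09, limma adjusted p = 0.00447). Npr2 was thus higher while the gene of its own ligand, Nppc, was near 0 in all 6 hearts.

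Npr1 (ENSMUSG00000027931, chromosome 3, 90450591 to 90465866), the receptor gene for ANP and BNP, was at 541, 572 and 606 among controls against 553, 627 and 728 among knockouts, with overlapping groups. Its log2 change was 0.14 (95% interval -0.09 to 0.38, limma adjusted p = 0.393), so that rises as large as those of Npr2 and Npr3 lie outside the interval. The ratio of Npr1 to Npr2 within a heart was 0.66, 0.63 and 0.65 among controls against 0.49, 0.48 and 0.52 among knockouts. The ratio of Npr3 to Npr1 was 2.65, 2.42 and 2.17 among controls against 4.48, 4.62 and 3.57 among knockouts. Neither ratio overlapped between the groups, and the log2 differences were -0.38 and 0.80, each with an exact permutation p of 0.1, two-sided, the smallest possible. The balance of receptor transcripts was therefore further toward Npr3 and Npr2 in each knockout than in any control.

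Mme (ENSMUSG00000027820, chromosome 3, 63241537 to 63386030) was low, at 133, 100 and 101 among controls against 140, 173 and 163 among knockouts. The highest control and the lowest knockout, both replicate 1, differed little. The mean was 111 ± 18.8 and 159 ± 16.9 (SD, n = 3 each), and Mme rose by 0.51 (SE 0.15, limma adjusted p = 0.0449), close to the threshold. It no longer passed without control replicate 2 (adjusted p = 0.136), control replicate 3 (0.134), knockout replicate 2 (0.156) or knockout replicate 3 (0.112) in limma, nor with 4 of the 8 other settings.

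The genes of the enzymes that cut the precursors did not pass the test. Corin (ENSMUSG00000005220, chromosome 5, 72300025 to 72504473) was at 2553, 2451 and 2612 among controls against 2568, 3657 and 2454 among knockouts. Knockout replicate 2 alone stood above the controls, and without it the log2 change went from 0.17 (95% interval -0.12 to 0.45, limma adjusted p = 0.421) to -0.02. Furin (ENSMUSG00000030530, chromosome 7, 80388585 to 80405436) was at 1946, 2268 and 2621 among controls against 2058, 2462 and 2876 among knockouts. These ranges overlapped over most of their length, and the log2 change was 0.11 (95% interval -0.18 to 0.40, limma adjusted p = 0.607). Without knockout replicate 3 the log2 change of Furin was -0.01. The intervals for both genes leave room for modest changes in either direction, but not for one of the size of Nppa.

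**Figure D3:**
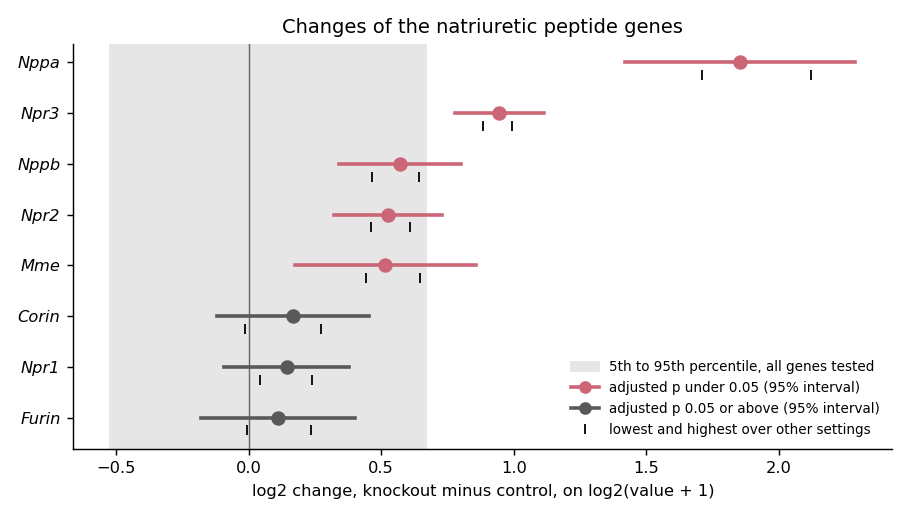
Log2 change, knockout minus control on log2(value + 1), of the 8 tested genes with its 95% interval, red where the adjusted p was under 0.05 and gray otherwise; ticks below each gene give the lowest and highest value over the other settings, and the shaded band runs from the 5th to the 95th percentile (-0.52 to 0.67) of all genes tested. Nppa at 1.85 and Npr3 at 0.95 lie above the band, Nppb, Npr2 and Mme inside it near its upper edge, and the intervals of Corin, Npr1 and Furin include 0.

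Several markers of the layers and cell types in which these genes are known to be expressed moved with them. The counts of markers that rose stand beside 8.61% of all genes tested, and those that fell beside 8.56%. The marker lists were chosen with earlier results of these data known, so the counts are descriptive and not independent support. Less RNA per cell and fewer cells of a type cannot be told apart in RNA of whole tissue. For Nppa, 9 of 11 markers of the trabecular myocardium rose in limma and 0 fell (0 also at an unadjusted p under 0.05), with a summed value of 9272 to 11389 among controls against 12079 to 16750 among knockouts. Among them Bmp10, a growth factor of trabecular and atrial cardiomyocytes, rose by 0.91 (SE 0.23), and Gja5, which encodes the gap junction protein connexin 40, by 0.64 (SE 0.18). The highest control sum was that of control replicate 2, which also had the highest Nppa of the controls. The same heart had the lowest values of Rbpms (3868) and Rbpms2 (1362) among the controls. Of 10 atrial markers 1, the transcription factor gene Nr2f2, rose and 2 fell, while at an unadjusted p under 0.05 in limma 3 were higher and 2 lower, and the median log2 change was 0.01. The atrial sum was 21436 to 24083 among controls against 15406 to 19749 among knockouts, and most of it was Myl4, a myosin light chain gene, with means of 14885 and 9490. Of the 15 cardiomyocyte markers 4 fell and 0 rose (0 also at an unadjusted p under 0.05 in limma). The 4 were Myh6 at -1.53, Myl4 at -0.65, Actc1 at -0.38 and Actn2 at -0.31, and the median of the 15 was -0.16. Their sum was 1267586 to 1299796 among controls against 1013560 to 1129995 among knockouts. Much of the difference lay in Myh6, with means of 98536 and 34233, and Actc1, with 280080 and 216420. The part of these cells in the rise of Nppa was not tested.

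For Npr3, 6 of 8 other endocardial markers rose in limma and 0 fell (0 also at an unadjusted p under 0.05), with a sum of 6146 to 6538 among controls against 8374 to 10574 among knockouts. Nfatc1, a transcription factor of the endocardium, rose by 0.38 (SE 0.09). Of 11 markers of endothelial cells in general 4 rose and 0 fell. Their sum was 25747 to 27863 among controls against 29204 to 33818 among knockouts. Without adjustment 7 were higher and 0 lower at p under 0.05 in limma, and the median log2 change was 0.23. Among those that did not pass, Cdh5, the endothelial cadherin, had a log2 change of 0.00 (SE 0.08). Fibroblast markers rose in 5 of 9 cases, and their sum was 92719 to 107955 among controls against 121245 to 150951 among knockouts. No marker in the trabecular, atrial, endocardial, endothelial, fibroblast or cardiomyocyte lists was at 0 in all hearts. Macrophage markers rose in 7 of 10 cases and epicardial markers in 3 of 10. The counts that rose in these lists stand beside 8.61% of all genes tested. Of 8 mural markers none passed, while in limma without adjustment 5 were higher and 1 lower at p under 0.05. Of 8 erythroid markers none passed, with 1 higher and 5 lower unadjusted, and their sum was 37997, 40399 and 66249 among controls against 34419, 30656 and 37851 among knockouts, with control replicate 3 standing apart. Of 6 immediate early genes, which respond to handling, Fos rose by 1.15 (SE 0.23), Egr1 by 0.76 (SE 0.19), and 0 fell. Without adjustment 2 were higher and 1, Jun at -0.34 (SE 0.13), was lower at p under 0.05 in limma. The median log2 change of the 6 was 0.03, and their sums overlapped, at 2840 to 3861 among controls against 2926 to 3797 among knockouts. The part of these cells and genes in the rises of Npr3, Npr2 and Mme was not tested.

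Ratios of a gene to a marker sum within each heart were added after these values had been seen. Nppa relative to the cardiomyocyte sum was 4.22 times as high in the knockouts by the means, and relative to the trabecular sum 2.55 times, with no overlap between the groups for either ratio. Nppb relative to the cardiomyocyte sum was 1.77 times as high, also without overlap. Npr3 relative to the endothelial sum was 1.63 times and relative to the endocardial sum 1.28 times as high, again without overlap. Npr2 relative to the fibroblast sum was 0.829%, 0.986% and 0.862% among controls against 0.937%, 0.920% and 0.926% among knockouts, where the groups overlapped. The cardiomyocyte sum was lower in the knockouts, which by itself lifts the 2 ratios taken to it above the folds of the values, 3.51 for Nppa and 1.48 for Nppb. These ratios describe the libraries and test no cause.

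Around Nppa and Nppb, 5 other tested protein-coding genes within 100 kb on either side of the pair are reported here, of which 1 fell and 4 did not pass. Mfn2, a protein of mitochondrial fusion, changed by -0.50 (SE 0.07, limma adjusted p = 0.00163). Clcn6, the nearest protein-coding gene past Nppa, was at 925, 957 and 953 among controls against 902, 916 and 864 among knockouts, a log2 change of -0.08 (SE 0.07) that did not pass although the groups were just apart. Plod1, Agtrap and 2510039O18Rik did not pass, with log2 changes of 0.20, 0.14 and 0.27. Draxin, whose gene reaches into the window, had values of 0 to 3 and was not tested. The predicted gene Gm13054, annotated antisense to Nppa with 989 bases of overlap, was at 17, 21 and 17 among controls against 67, 69 and 57 among knockouts and rose by 1.76 (SE 0.21, limma adjusted p = 0.000829). The libraries were stranded, but whether the counting used strand is not given, so reads of Gm13054 and Nppa may not be separate.

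**Figure D4:**
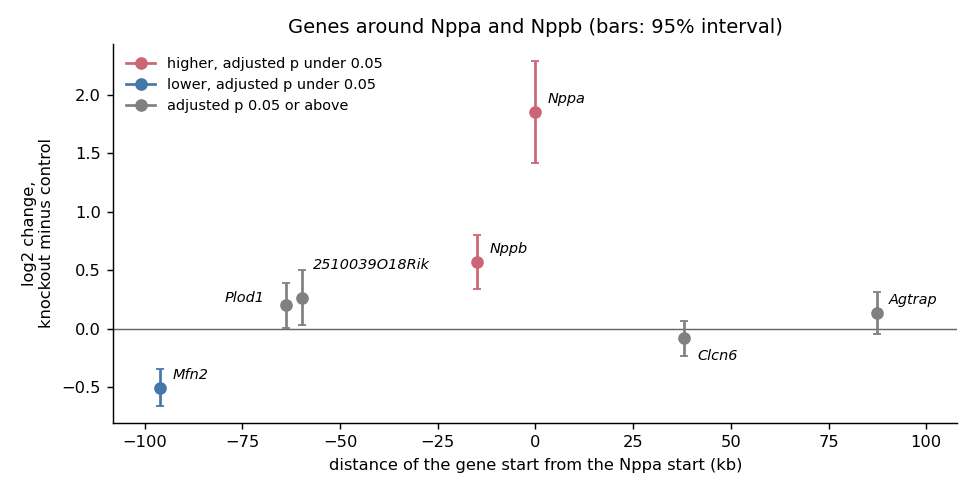
Log2 change, knockout minus control, with its 95% interval, of Nppa, Nppb and 5 tested protein-coding genes within 100 kb of them, against the distance of each gene start from the Nppa start in kb; red is higher and blue lower at an adjusted p under 0.05, gray neither. Nppa at 1.85 and Nppb at 0.57 have the highest values of the genes shown, and Clcn6 lies near 0.

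Genes with the most similar pattern over the 6 hearts were found by the root mean square difference between log2 profiles, each centred on its control mean, among 10308 candidate genes whose mean was 100 or more. For Nppa they were Etv5, an ETS transcription factor (difference 0.16), Sdc4, a syndecan (0.22), and Itgav, an integrin subunit (0.25). For Nppb they were Pacsin3 (0.07), the cathepsin gene Ctsl (0.08) and Btg2, an antiproliferative gene (0.08). For Npr3 the closest was Emcn, the gene of the endothelial sialomucin endomucin and one of the endothelial markers above (0.06), at 1009, 986 and 1009 among controls against 1842, 1945 and 1874 among knockouts. Vcan, a matrix proteoglycan, and Kctd12 followed at 0.07 each. For Npr2 they were P3h1, a collagen prolyl hydroxylase (0.03), Igfbp4 (0.04) and the cathepsin gene Ctsf (0.04), and for Mme they were Epha4, Man2a1 and Ctso at 0.06 each. The differences describe likeness over these 6 hearts only.

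Beyond the receptors, 22 of 28 listed genes of cGMP signalling were abundant enough to test; 4 rose and 0 fell in limma, and without adjustment 5 were higher and 2 lower at p under 0.05. The share that rose, 4 of 22, stands beside 8.61% of all genes tested. Pde1c, a phosphodiesterase that breaks down cAMP and cGMP, had a mean of 1253 ± 71.5 in controls and 1829 ± 143 in knockouts (SD, n = 3 each) and rose by 0.54 (SE 0.08). Pde3a, a phosphodiesterase that cGMP inhibits, rose by 0.43 (SE 0.10) and Pde1a by 0.43 (SE 0.13). Gucy1a3, a subunit of the guanylyl cyclase that responds to nitric oxide, rose by 0.38 (SE 0.06). The remaining genes did not pass, among them Prkg1, the main cGMP-dependent kinase gene of muscle, at 0.10 (SE 0.24), and Pde5a, a phosphodiesterase specific for cGMP, at 0.00 (SE 0.14). The median log2 change of the 22 was 0.12, against 0.00 over all genes tested. Without each heart in turn 2 to 4 rose, with 2 without control replicate 3 or knockout replicate 2, and 1 fell without knockout replicate 2 or knockout replicate 3.

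Of 21 other genes of peptide processing and breakdown 14 were tested, and 4 rose, beside 8.61% of all genes tested, and 0 fell, with 0 lower also at an unadjusted limma p under 0.05. Ece1, an endothelin-converting enzyme related to neprilysin, had a mean of 2384 ± 257 in controls and 3765 ± 447 in knockouts (SD, n = 3 each) and rose by 0.66 (SE 0.10). Pcsk6, the proprotein convertase that activates corin, was at 319, 291 and 295 among controls against 330, 511 and 489 among knockouts and rose by 0.53 (SE 0.15, limma adjusted p = 0.0395). Dpp4, a dipeptidyl peptidase of the cell surface, rose by 0.39 (SE 0.11) and Galnt1, a glycosyltransferase, by 0.24 (SE 0.06). Ide, the insulin-degrading enzyme, which also cuts natriuretic peptides, had a log2 change of -0.04 (SE 0.07). The median of the 14 was 0.22, against 0.00 over all genes tested. This count depended on individual libraries: leaving out hearts singly, 1 to 3 rose, with 1 without control replicate 2, control replicate 3 or knockout replicate 2, and 2 without knockout replicate 3.

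Transcription factors that are known to act on the ligand genes, or to set the regions where they are expressed, mostly did not pass: of 22 tested, 2 rose, 3 fell and 17 did not pass, which is near the 8.61% higher and 8.56% lower over all genes tested. Hey1, a repressor of the Notch pathway, rose by 0.62 (SE 0.11), and Nr2f2, a factor of atrial identity, by 0.56 (SE 0.10). Hand1 changed by -1.03 (SE 0.17), with 174, 144 and 168 among controls against 65, 79 and 95 among knockouts. Srf, the serum response factor, changed by -0.63 (SE 0.08) and Hey2, a repressor of the compact layer, by -0.42 (SE 0.10). Gata4, Nkx2-5 and Tbx5, among the known activators of Nppa, did not pass. Their log2 changes were -0.17 (SE 0.08), -0.19 (SE 0.16) and 0.13 (SE 0.15). At an unadjusted limma p under 0.05, 2 of the 22 were higher and 5 lower. The median of the 22 was -0.16. Without each heart in turn 2 to 3 rose and 2 to 4 fell.

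**Figure D5:**
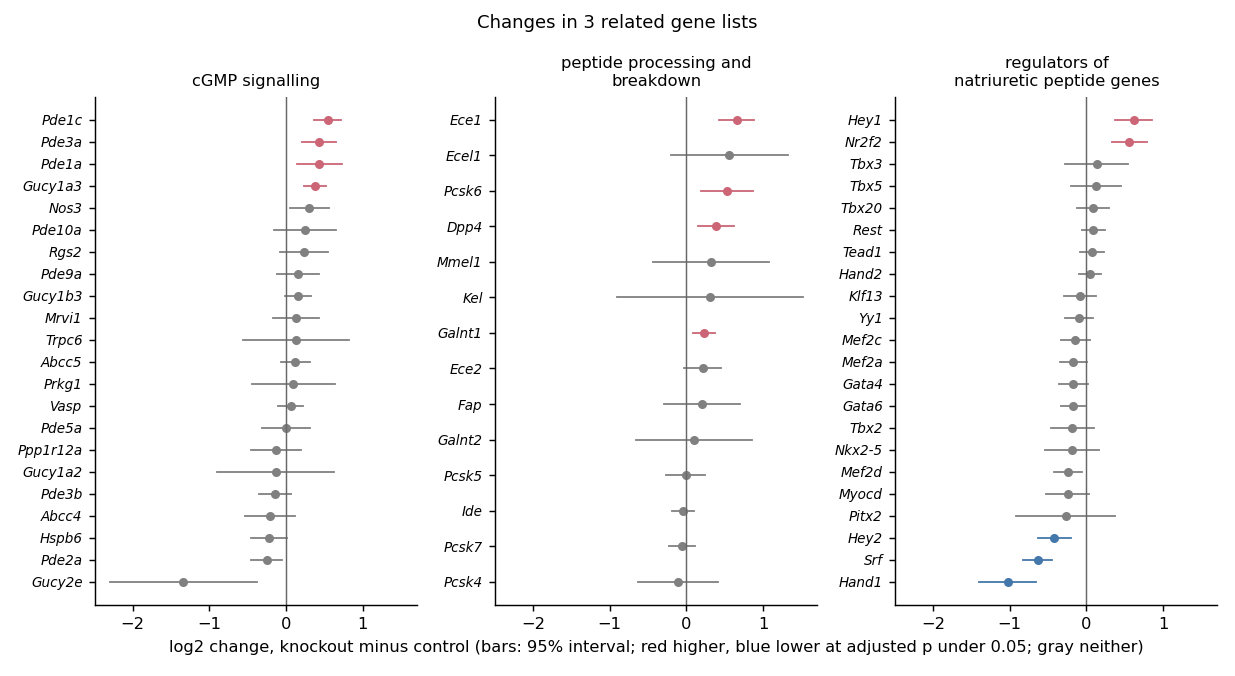
Log2 change, knockout minus control, with its 95% interval, of the tested genes of cGMP signalling (22), peptide processing and breakdown (14) and regulators of the ligand genes (22); red is higher and blue lower at an adjusted p under 0.05, gray neither. The red points are 4 genes each in the left and middle panels and 2 in the right panel, where 3 genes are blue.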

How the data were processed

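Stranded paired-end libraries of poly(A) RNA were made from 6 embryonic hearts, per the labels' protocols. The submitters' processing notes name build mm10, featureCounts 1.5.0, STAR 2.4.2a, Trimmomatic, DESeq and DESeq2; the role of each and the strand setting of the counting are not given in the sources used here. The deposited values are treated as a score, since their spacing shows that the authors scaled the reads of each heart by its own factor and rounded the result. The factor, and from it the depth, was estimated from the spacing of values up to 150. Reads cannot be recovered exactly, so no count test was run.

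Groups and replicate numbers came from the sample titles. The test was limma 3.58.1 (R 4.3.3) with a variance trend on log2(value + 1) of the 15556 genes whose mean was 10 or more, with Benjamini-Hochberg adjustment over all of them and a threshold of 0.05; a fold change on this scale is understated for low genes. The fit was run on simulated data whose spread between hearts was fixed and not taken from these hearts. It did not recover every changed gene there. The 3 within-heart ratios had an exact permutation test. Coordinates and exon lengths are from GENCODE M21 of the same build, which held 45143 of the 45706 identifiers. Named genes were all 9 members, up to 6 genes per related list past the threshold by smallest p, the 3 most similar profiles per member that rose (without predicted genes, pseudogenes and sex-linked genes), and protein-coding genes within 100 kb of Nppa and Nppb (1 is not reported here); Prkg1, Pde5a, Ide, Gata4, Nkx2-5, Tbx5, Gm13054 and the marker genes named were added after their values were seen. The members and lists were chosen with earlier results of these data known. Alternatives were other pseudocounts, filters and scalings, limma-voom on estimated reads, the replicate number as a block, and leaving out each heart. Figures were drawn with matplotlib 3.10.9.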

Additional observations from a re-analysis of the deposited data

How the results depend on the processing

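Nppa, Nppb, Npr2 and Npr3 passed in limma under each of the 14 alternatives, with log2 changes of 1.71 to 2.12, 0.46 to 0.64, 0.46 to 0.61 and 0.88 to 0.995, and Npr1, Corin and Furin passed under none. With each heart left out, the log2 change of Corin ran from -0.0157 (without knockout replicate 2) to 0.272 and that of Furin from -0.0068 (without knockout replicate 3) to 0.2345, so that the direction of neither was stable. Mme stayed higher but did not pass with no filter on low values (adjusted p = 0.0874), quantile normalization (0.0607), limma-voom on estimated reads (0.0572) or the replicate number as a block (0.0547). Over all genes 1339 were higher and 1331 lower; with no filter 846 were higher and 909 lower, and with equal totals 1570 were higher and 1091 lower. Without each heart in turn 619 to 1237 genes were higher and 700 to 1225 lower, the fewest without knockout replicate 2, and the members past the threshold were 4 to 5. With the replicate block 1787 genes were higher and 1743 lower, 4 members passed, and 2 genes of cGMP signalling and 5 regulators were lower. With no filter 1 gene of peptide processing and breakdown was higher, and with quantile normalization or limma-voom 1 gene of cGMP signalling was lower. Deviations of same-numbered hearts from their group means had correlations of -0.04, -0.37 and 0.05, and no heart correlated best with its own number, so the numbers are not taken to pair the hearts. The ratios kept their direction under each alternative run for them (10 added to each value, the block and each heart left out). Nppc, at 4 to 9, was tested only with no filter (adjusted p = 0.969).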

Other observations

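RBPMS proteins are known to bind RNA at pairs of the letters CAC separated by a short gap. In the longest annotated protein-coding transcript of each gene, pairs of CAC with 1 to 12 bases between them were counted per kb. The transcripts are spliced, so introns were not searched. The median over 13512 tested genes was 3.03 pairs per kb. Nppa, which changed most, had 2 pairs in 865 bases, or 2.31 per kb, at the 34.2nd percentile, and Npr3 had 3.63 per kb. Nppb had 5 pairs in 781 bases, or 6.40 per kb, at the 92.0th percentile, and Furin, which did not pass the test, had 6.23 per kb. The remaining values were 1.74 for Mme, 2.73 for Npr2, 3.09 for Corin, 4.92 for Npr1 and 5.76 for Nppc. Genes that rose thus lay both below and above the median; the letters do not show binding, and a relation of the pairs to the changes was not tested.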
